A study of Mus musculus with 2 samples.

Results

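The genes of voltage-gated potassium channels were examined as a set in nuclei of the mouse thalamus. Membership was fixed by gene symbol alone: the symbol had to begin with Kcna, Kcnb, Kcnc, Kcnd, Kcnf, Kcng, Kcnh, Kcnq, Kcns or Kcnv and end in a number, which 40 of the 32285 genes in both count tables did. Single-nucleus RNA sequencing had been run on the ipsilateral thalamus of female C57BL/6J mice that were 3 months old at surgery and were sampled 21 days later. The sham group had received a burr hole without removal of tissue, and the injury group had received cortical ablation injury (CAI), in which cortex is surgically removed. Each group was 1 library made from the pooled nuclei of 4 mice, and the mice within a pool cannot be told apart. A difference between sham and injury is therefore a difference between 2 libraries, and no spread between replicates stands behind it.

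Voltage-gated potassium channels open when the membrane depolarizes and let potassium leave the cell, which ends the action potential and sets how soon the next one can follow. A channel is built from 4 alpha subunits around a pore. Subunits of the Kv1, Kv2, Kv3, Kv4, Kv7 and Kv10 to Kv12 families form pores by themselves or with relatives, whereas Kv5, Kv6, Kv8 and Kv9 subunits are called electrically silent because they act only when combined with Kv2 subunits. In the thalamus, relay neurons and the GABAergic neurons of the reticular nucleus both switch between tonic and burst firing, the reticular neurons inhibit the relay neurons, and the habenula is a neighbouring epithalamic structure whose medial part holds cholinergic and tachykinin neurons.

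Nuclei were clustered without the 40 channel genes, and 4 neuron types were taken from clusters named with fixed markers. A further neuron class, other glutamatergic nuclei (2393 sham and 3319 injury nuclei in 5 clusters), was not among them. Its largest cluster (1984 and 2315 nuclei) was led by Sim1, Ebf3 and Lmx1a. Statements below on other types or neuron types cover the 4 types only. Relay-like nuclei came from 10 clusters (7576 sham and 7584 injury nuclei), habenula-like nuclei from 3 clusters (1864 and 2178), reticular-like nuclei from 1 cluster (467 and 823) and other GABAergic nuclei from 1 cluster led by Gad2, Pax6 and Otof (1494 and 2406). Sums of these markers describe the types and do not test their names, since the naming used the same markers. Levels are given as CPM, a gene's UMIs scaled to the same total in every sum of nuclei. Summed over 12 relay markers they were 13616 in sham and 13817 in injury relay-like nuclei and at most 3862 in the other types. The 18 habenular markers summed to 6444 and 7267 CPM in habenula-like nuclei and at most 1088 elsewhere, and the 10 reticular markers to 2355 CPM in both libraries of reticular-like nuclei and at most 469 elsewhere. Nwd2 alone gave 4519 and 5533 CPM of the habenular sums. Meis2 (956 and 900 CPM) and Ubash3b (968 and 1044 CPM) gave most of the reticular sums. Against their lists, Pcdh10 was lowest in habenula-like nuclei (91.3 and 81.8 CPM) and Slc25a48 had 0 CPM in reticular-like nuclei. In injury, Htr2c was at 717 CPM in habenula-like and 720 CPM in other GABAergic nuclei. UMIs were summed over all nuclei of a type and library, and these sums held between 3719628 UMIs (reticular-like, sham) and 83864723 UMIs (relay-like, injury). At equal CPM, reticular-like nuclei therefore had the widest counting intervals. All intervals below are 95% intervals for counting error only.

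The libraries were not alike in every respect. The injury library alone held 2 glutamatergic clusters of 282 and 220 nuclei, and a GABAergic cluster led by Myo5b, Ano2 and Prdm16 had 3 sham and 444 injury nuclei and entered none of the types. Doublets were called in 13.3% of sham and 17.8% of injury nuclei. These shares were set by library size, at 0.8% per 1000 nuclei kept, and do not measure a difference in doublets. In all, 101 barcodes occurred in both libraries. Clusters of mostly doublets (750 sham and 1276 injury nuclei) entered no type, and called doublets in the other clusters were kept. Since each sum was scaled to its own total, CPM shows neither the number of nuclei nor the RNA per nucleus. Median UMIs per nucleus in sham and injury were 9387 and 9752 in relay-like and 5236 and 5521 in habenula-like nuclei. They were 6908 and 7172 in reticular-like and 6117 and 5958 in other GABAergic nuclei. TMM factors, an alternative scaling, differed from those of relay-like nuclei by 0.24 (habenula-like), 0.19 (reticular-like) and 0.36 (other GABAergic) on the log2 scale. The annotation places 12 of the 40 members over another counted gene, and whether counting used strand is not given in the sources used here.

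Of the 40 members, 37 had at least 100 UMIs over the 8 sums. Kcna5, Kcna7 and Kcna10 did not, and no value is drawn from them. A gene was called set apart in a type when its CPM was at least 2-fold above, or at least 2-fold below, that in each of the other 3 types in both libraries. By this measure 17 of the 37 members (45.9%) were set apart in at least 1 type, against 14.6% of all 17732 genes measured. The 10 electrically silent subunits gave 7 of these, and 10 of the 27 pore-forming members measured gave the rest. For members and all genes alike, the minimum counted UMIs of the type called high. Kcns1 (184 UMIs, with 54 and 68 in reticular-like nuclei) reached it only through the type where it was high. So did Kcnv1 (126 UMIs, with 13 and 38 in other GABAergic nuclei). In the direct comparisons below, a member may likewise have reached the minimum through the group where it was high. No type held the set as a whole. In the sham library, 10 members were highest in relay-like, 9 in habenula-like, 8 in reticular-like and 10 in other GABAergic nuclei. The type with the highest level was the same in both libraries for 31 members, and the whole order of the 4 types was the same for 21.

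**Figure D1:**
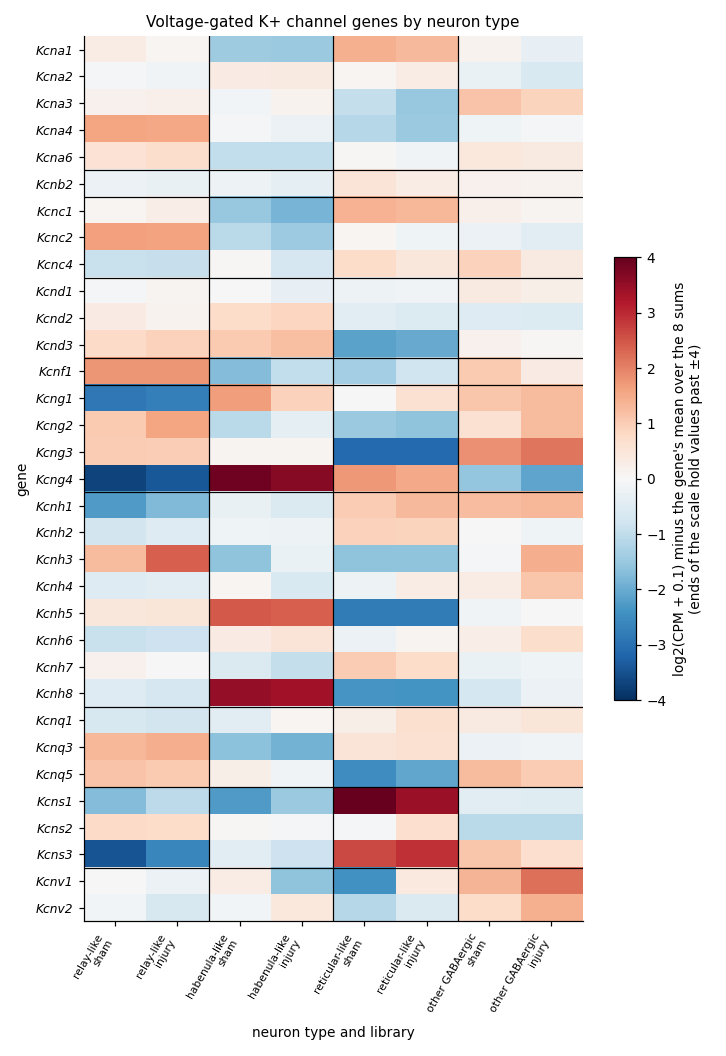
Heat map of 33 measured channel genes (rows, grouped by family) in 4 neuron types and 2 libraries (columns). Color gives log2(CPM + 0.1) minus the gene's own mean over the 8 sums; most genes show like colors in the sham and injury columns of a type, and strong contrasts include Kcng4 and Kcnh8 (high in habenula-like), Kcns1 and Kcns3 (high in reticular-like) and Kcng3 and Kcnh5 (low in reticular-like).

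In relay-like nuclei, 2 members were set apart as high (background 3.05%) and 4 as low (background 2.41%). Kcnc2, on chromosome 10 from 112271121 to 112467024 (mm10), encodes Kv3.2, a fast channel of the Kv3 family that allows rapid repolarization. It stood at 2311 CPM in sham and 2254 CPM in injury relay-like nuclei, compared with 788 and 660 CPM in reticular-like, 633 and 554 CPM in other GABAergic and 353 and 270 CPM in habenula-like nuclei. Both libraries thus placed relay-like nuclei above every other type, by 1.55 on the log2 scale over the nearest one in the library where the gap was smaller. Kcna4, the gene of the rapidly inactivating A-type channel Kv1.4, was at 74.9 and 72.5 CPM in relay-like nuclei. In no other type did Kcna4 pass 24.2 CPM, and its smaller gap was 1.60 on the log2 scale. With trimmed-mean (TMM) scaling in place of CPM, the relay-like counts became 4 high and 3 low.

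The low members in relay-like nuclei were Kcng1, Kcng4, Kcns3 and Kcnh1. Kcng1, Kcng4 and Kcns3 encode silent subunits, and their transcripts were sparse in relay-like nuclei. Kcng1 had 14 sham and 17 injury UMIs in relay-like nuclei, which came to 0.177 and 0.203 CPM, and its nearest type, reticular-like nuclei, had 1.88 and 2.97 CPM on 7 and 20 UMIs. Kcng4 was at 0.0758 and 0.119 CPM in relay-like nuclei and at 0.684 and 0.429 CPM in other GABAergic nuclei, the nearest type, on 7 UMIs in each library. In injury, where relay-like nuclei had 10 UMIs of Kcng4, the counting intervals of these types overlapped. Kcns3 was at 0.695 and 1.34 CPM in relay-like nuclei, and its next lowest type, the habenula-like nuclei, had 6.44 and 4.78 CPM. That level came mostly from habenula-like cluster 10, at 12.6 and 11.6 CPM. Habenula-like cluster 14 had 0 CPM in both libraries and cluster 7 had 0.953 and 0.704 CPM. Cluster 14 thus lay below relay-like nuclei in both libraries, and cluster 7 did so in injury. Kcnh1, which encodes the ether-à-go-go channel Eag1, was at 7.27 and 10.3 CPM in relay-like nuclei. Its nearest type, habenula-like nuclei, had 28.7 and 23.5 CPM, and other GABAergic nuclei had 82.0 and 88.9 CPM. Habenula-like cluster 10 had 57.1 and 55.6 CPM of Kcnh1. Habenula-like clusters 7 (0.318 and 1.76 CPM) and 14 lay below relay-like nuclei in both libraries. For Kcnh1, 9 of 10 relay-like clusters lay below all other types in both libraries. Relay-like cluster 5, at 30.9 and 44.9 CPM, lay above the habenula-like sum. The call for Kcnh1 was lost with TMM scaling, where its gap shrank from 1.19 to 0.95 on the log2 scale below the nearest type. With the mean CPM of single nuclei, the calls of both Kcnh1 (-0.89) and Kcng4 (-0.91) were lost.

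Relay-like nuclei were not uniform. All 10 clusters lay above the sums of every other type for Kcna4, and 9 of 10 did so for Kcnc2. Habenula-like cluster 14 alone, with 60.4 and 51.0 CPM of Kcna4, exceeded some of them. The exception was cluster 6, led by Gli3 and Lypd6b, with 517 CPM of Kcnc2 in sham and 533 CPM in injury, while the other clusters ran from 998 to 3759.6 CPM. At clustering resolution 1.0, a cluster led by the same genes (696 sham and 831 injury nuclei) was classed as other glutamatergic, so the relay-like name of cluster 6 depends on the resolution. Cluster 6 also departed in other members. It had the highest Kcnq5 level of the relay-like clusters (1432 and 1444 CPM), against 76.3 and 66.3 CPM in cluster 4, led by Abhd12b and Prkcd. Kcnq5 encodes Kv7.5, a member of the M-current family that restrains repeated firing. Kcng2, a silent Kv6 subunit, was at 33.0 and 45.9 CPM in cluster 6 and at no more than 4.86 CPM in any other relay-like cluster. Kcnh8, the gene of the Elk1 channel Kv12.1, went from 2.37 and 4.27 CPM in cluster 4 to 117 and 114 CPM in cluster 5, led by Glis3 and Col12a1. For these 4 genes, sham and injury values of a cluster lay closer to each other than the highest and lowest clusters did.

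**Figure D2:**
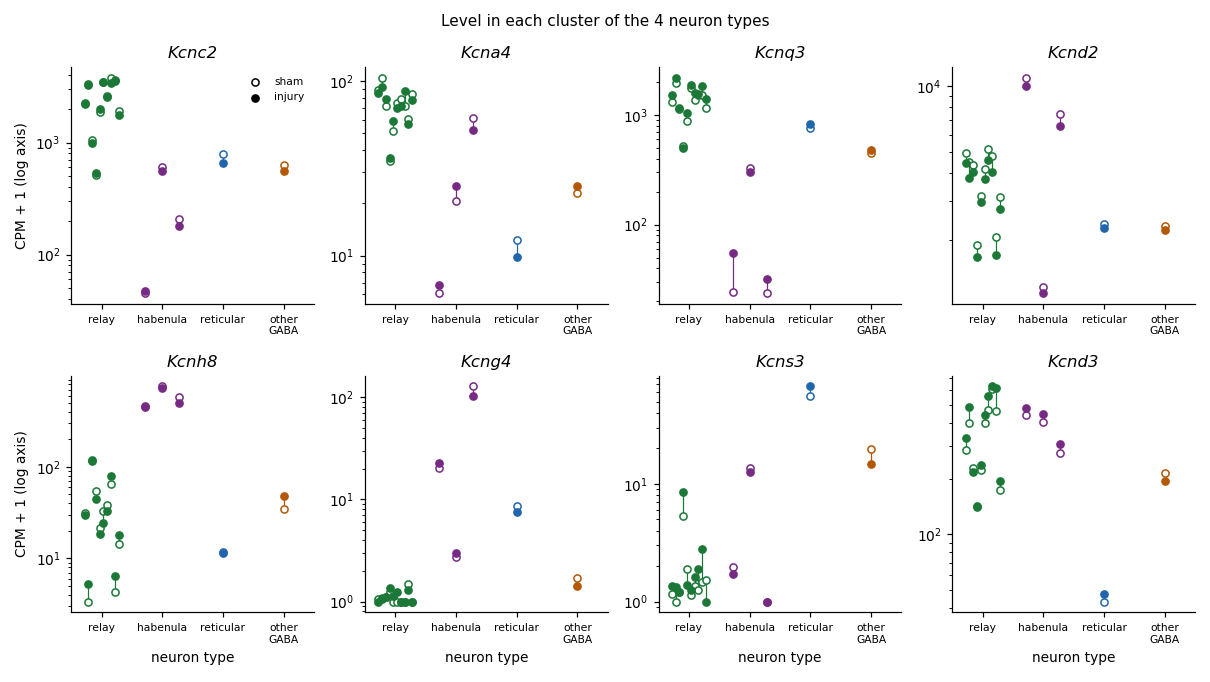
CPM + 1 (log axis) of 8 members in each cluster of the 4 neuron types, sham as open and injury as filled circles joined by a line. Relay-like clusters sit highest for Kcnc2 except cluster 6, 1 habenula-like cluster overlaps them for Kcna4, and the 3 habenula-like clusters separate into a pair and a single cluster for Kcnq3 and Kcnd2 and lie far apart for Kcng4.

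Habenula-like nuclei had 3 members set apart as high (background 2.86%) and 3 as low (background 1.87%). Kcnh8 was at 630 CPM in sham and 567 CPM in injury, and no other type exceeded 47.0 CPM. The gene of Eag2, Kcnh5, was at 472 and 451 CPM, with relay-like nuclei next at 118 and 121 CPM. Kcng4, which encodes the silent subunit Kv6.4, was at 34.0 CPM (30.6 to 37.6) in sham and 28.6 CPM (25.8 to 31.6) in injury. The next type for Kcng4 was reticular-like, at 7.53 and 6.54 CPM on 28 and 44 UMIs. These 3 genes were not used to form the clusters, although Kcnh8 in cluster 10 and Kcng4 in cluster 14 were among the leading genes by fold. In the mouse assembly mm10, Kcnh8 lies on chromosome 17 from 52602709 to 52979194 and Kcnh5 on chromosome 12 from 74897220 to 75177332.

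On the low side in habenula-like nuclei were Kcnq3, Kcnc1 and Kcna1. Kcnq3 (Kv7.3), a subunit of the M-channel, was at 171 and 145 CPM, compared with 1327 and 1464 CPM in relay-like nuclei and 450 and 481 CPM in other GABAergic nuclei, the next lowest type. Kcnc1, the gene of the fast-spiking channel Kv3.1, was at 33.9 and 26.9 CPM, and its next lowest type, relay-like nuclei in sham and other GABAergic nuclei in injury, had 102 and 104 CPM. Kcna1 encodes Kv1.1, an axonal channel that limits excitability, and it was at 13.2 and 12.4 CPM in habenula-like nuclei. Its next lowest value was 38.3 CPM in sham and 27.6 CPM in injury, both in other GABAergic nuclei.

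The 3 habenula-like clusters differed from one another. They were compared with each other after their values had been seen. Cluster 7 carried cholinergic genes (Chat, Slc5a7, Chrna3), cluster 14 was led by Pde11a and Syt6, and cluster 10 by Ptprq and Mme. At resolution 1.0, cluster 10 was divided into a habenula-like cluster (547 sham and 526 injury nuclei) and one classed as other glutamatergic (224 and 174), which also had Kcnh8 among its leading genes. The Kcnh8 gap of habenula-like nuclei lay between 3.43 and 3.75 on the log2 scale over the alternatives. In both libraries, 2 of 26 members measured here were at least 2-fold higher in each of clusters 7 and 14 than in cluster 10 (background 2.48%), and 9 of 26 were at least 2-fold lower in both (background 5.08%). The higher pair was Kcnd2 and Kcng4. Kcnd2, the gene of the somatodendritic A-type channel Kv4.2, was at 10817 CPM in sham and 9996 CPM in injury in cluster 7, at 7423 and 6532 CPM in cluster 14, and at 1220 and 1140 CPM in cluster 10. Kcng4 was concentrated in cluster 14, with 126 and 100.3 CPM against 19.4 and 21.7 CPM in cluster 7 and 1.72 and 1.97 CPM in cluster 10. Cluster 10 therefore lay below reticular-like nuclei for Kcng4, and 2 of the 3 clusters carried the habenular call for that gene.

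The 9 members lower in clusters 7 and 14 were Kcna1, Kcna6, Kcnc1, Kcnc2, Kcnc4, Kcnh1, Kcnq3, Kcnq5 and Kcns3. They include genes of the Kv1, Kv3 and M-channel families. Kcnc1 was at 4.45 and 6.16 CPM in cluster 7, 4.28 and 5.76 CPM in cluster 14, and 64.7 and 60.2 CPM in cluster 10. Kcnq3 was at 23.2 and 54.8 CPM in cluster 7, 22.7 and 31.3 CPM in cluster 14, and 326 and 299 CPM in cluster 10. For Kcna1, Kcnc1 and Kcnq3 all 3 clusters nonetheless lay below each of the other neuron types in both libraries. Kcnh8 and Kcnh5 divided the clusters little: Kcnh8 ran from 447 to 756 CPM and Kcnh5 from 387 to 510 CPM over the 3 clusters and 2 libraries.

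**Figure D3:**
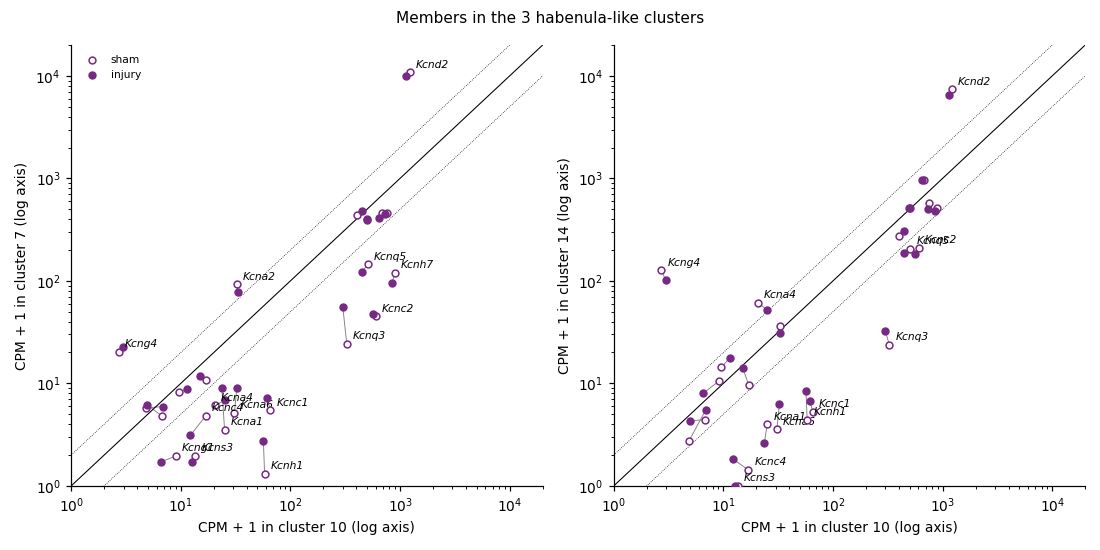
CPM + 1 of 23 members measured in habenula-like nuclei, in cluster 7 (left) and cluster 14 (right) against cluster 10, on log axes; open circles are sham, filled circles injury, the solid line marks equality and dotted lines 2-fold. Kcnd2 and Kcng4 lie above the lines in both panels, and Kcnq3, Kcnc1, Kcna1 and Kcns3 below.

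Reticular-like nuclei had 4 members set apart as high (background 1.48%) and 5 as low (background 2.08%). With TMM scaling the high count was 3, since Kcna1 and Kcnc1 were lost and Kcnh2 was gained, and relay-like nuclei had 4. The high members combined Kv1.1 and Kv3.1 with the silent Kv9 subunits. Kcns1 was at 14.5 CPM (10.9 to 18.9) in sham and 10.1 CPM (7.85 to 12.8) in injury, on 54 and 68 UMIs, and no other type passed 0.587 CPM. Kcns3 was at 54.3 and 66.3 CPM, with other GABAergic nuclei next at 18.7 and 13.7 CPM. Kcnc1 was at 253 and 243 CPM against 112 and 117 CPM in the nearest type, and Kcna1 at 94.4 and 86.7 CPM against 43.2 and 37.0 CPM in relay-like nuclei. The Kcns1 and Kcns3 gaps stayed past 2-fold under all 12 alternative settings, whereas with TMM scaling the gaps of Kcna1 (0.93 on the log2 scale) and Kcnc1 (0.87) fell under it. Kcnc1 also did so at clustering resolution 1.0 (0.93) and with the mean CPM of single nuclei (0.99). Kcna1 was higher still in oligodendrocytes, and the sum of 7 oligodendrocyte markers in reticular-like nuclei was 91.4 CPM in sham and 215 CPM in injury; the part of such RNA in the Kcna1 level was not tested.

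The low members in reticular-like nuclei were Kcnd3, Kcnh5, Kcnh8, Kcnq5 and Kcng3. Kcnd3 (Kv4.3, an A-type channel) was at 42.2 and 46.4 CPM there and at no less than 193 CPM in any other type. Kcnh5 was at 12.4 and 12.3 CPM and Kcnh8 at 10.8 and 10.4 CPM. Kcnq5 was at 51.1 and 68.2 CPM, and its nearest type, habenula-like nuclei, had 334 and 258 CPM. The smaller Kcnq5 gap was -1.92 on the log2 scale, and it ranged from -3.16 to -1.05 over the alternatives. Part of the reticular-like level of these genes sat in nuclei called doublets, which held 58.7% and 50.6% of the Kcnh5 UMIs, 39.5% and 38.1% of the Kcnd3 UMIs and 42.6% and 83.4% of the Kcnq5 UMIs in sham and injury. Of the Kcnh8 UMIs, 16 of 40 in sham and 43 of 70 in injury lay outside them. Without those nuclei all 4 genes were lower still in reticular-like nuclei, at 6.23 and 7.77 CPM for Kcnh5, 5.24 and 8.15 CPM for Kcnh8, 31.1 and 36.6 CPM for Kcnd3 and 35.7 and 14.4 CPM for Kcnq5. Kcng3, a silent Kv6 subunit, had 0 UMIs in both reticular-like sums, which allows up to 0.806 CPM in sham and 0.446 CPM in injury at 3 counts. Habenula-like nuclei, the next lowest type, had 0.840 and 0.835 CPM on 9 and 11 UMIs, and their intervals overlapped those of reticular-like nuclei. The Kcng3 call rests on the 0.5 UMI added before taking ratios and was lost with 2 UMIs added (-0.93).

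Reticular-like and other GABAergic nuclei were also compared directly, a contrast chosen after the values were seen. Of 29 members measured in the pair, 5 were at least 2-fold higher in reticular-like nuclei in both libraries (background 3.12%) and 6 were at least 2-fold lower (background 8.27%). The higher ones were Kcns1, Kcns3, Kcna1, Kcnc1 and Kcns2. On the log2 scale the Kcns1 difference was 4.63 (3.41 to 6.14) in sham and 4.19 (3.19 to 5.38) in injury, and that of Kcns3 was 1.54 (1.25 to 1.83) and 2.28 (2.04 to 2.52). Among the lower ones were Kcnd3, Kcng2, Kcnh5, Kcnh8 and Kcnq5. Kcnq5 differed by -3.76 (-3.98 to -3.55) in sham and -3.10 (-3.23 to -2.96) in injury, and Kcnh5 by -2.65 (-3.11 to -2.22) and -2.78 (-3.12 to -2.46).

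Other GABAergic nuclei were set apart by few members. Kcnv1, the silent subunit Kv8.1, was the 1 high member (background 2.04%), at 1.27 CPM in sham and 2.33 CPM in injury on 13 and 38 UMIs. Reticular-like nuclei in sham had 0 UMIs of it. In sham its interval overlapped those of habenula-like and reticular-like nuclei, and with 2 UMIs added before taking ratios it no longer passed 2-fold. Kcns2 was the 1 low member (background 0.434%), at 2.05 and 2.09 CPM, next to 4.30 CPM in reticular-like nuclei in sham and 4.33 CPM in habenula-like nuclei in injury. The sham values rested on 21 UMIs in other GABAergic and 16 UMIs in reticular-like nuclei, and their counting intervals overlapped. The Kcns2 call was lost without called doublets (-0.91 on the log2 scale), with the mean CPM of single nuclei (-0.82) and with each cluster weighted equally (-0.97). Kcnh1 reached its highest level in this type in both libraries, at 82.0 and 88.9 CPM, but reticular-like nuclei were close, at 71.5 and 86.1 CPM. In the injury library, the kept-out GABAergic cluster led by Myo5b, Ano2 and Prdm16 had 40.3 CPM of Kcng3 and 29.5 CPM of Kcng2, values that cannot be set against its 3 sham nuclei.

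The remaining 20 measured members were not set apart. Kcnb2, a gene of the Kv2 family, whose channels the silent subunits join, ran from 604 to 1135 CPM over the 8 sums. Kcna2 (Kv1.2) lay between 25.8 and 51.4 CPM, and Kcnd1 between 3.41 and 5.57 CPM. Other members were graded without reaching 2-fold in every contrast. Kcnh7, the gene of the Erg3 channel, was at 1743 and 1462 CPM in reticular-like nuclei and at 585 and 454 CPM in habenula-like nuclei. Kcnc4 was at 14.5 and 12.04 CPM in reticular-like nuclei, 16.4 and 11.2 CPM in other GABAergic nuclei and 4.63 and 4.54 CPM in relay-like nuclei. Kcnf1 (Kv5.1, silent) was at 3.12 and 3.15 CPM in relay-like nuclei and at 0.186 and 0.379 CPM in habenula-like nuclei.

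Auxiliary subunits bind these channels and change their gating or trafficking. Of 15 genes listed for this purpose, 14 had a row under that symbol and 10 had enough UMIs; Kcne1, Kcne2, Kcne3 and Kcne4 did not. Among the 10, 5 were set apart in at least 1 type, beside the 14.6% of all genes. By type, 2 were high (background 3.05%) and 1 low (background 2.41%) in relay-like nuclei, and 2 were high (background 1.48%) and 1 low (background 2.08%) in reticular-like nuclei. Kcnip4 encodes a KChIP protein that binds Kv4 channels, and it was at 26076 and 23913 CPM in relay-like nuclei, at 5807 and 4566 CPM in habenula-like and 4571 and 4621 CPM in other GABAergic nuclei, and at 1119 and 951 CPM in reticular-like nuclei. It was thereby set apart as high in relay-like and as low in reticular-like nuclei, and called doublets held 38.9% and 44.8% of its reticular-like UMIs. Dpp10, another partner of Kv4 channels, was at 6213 and 5917 CPM in reticular-like nuclei and at no more than 2186 CPM elsewhere. Kcnab1, a beta subunit of Kv1 channels, was highest in relay-like nuclei (505 and 525 CPM), its relative Kcnab3 in reticular-like nuclei (22.05 and 19.3 CPM), and Kcnip1 was lowest in relay-like nuclei (113 and 123 CPM). For Kcnip1, 8 of 10 relay-like clusters lay below all other types in both libraries. Relay-like cluster 23 had 627 and 663 CPM of it, and habenula-like cluster 10 had 55.7 and 85.8 CPM. The Kcnip1 call was lost with TMM scaling (-0.89 on the log2 scale) and with each cluster weighted equally (-0.99). The Kcnab1 call was lost when the kept-out clusters were put into their types (0.95 on the log2 scale), a setting chosen after seeing the data.

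Some members were high in glia, a comparison chosen after the values were seen. Kcna1 was at 313 CPM in sham and 314 CPM in injury in oligodendrocytes, above every neuron type. Kcna6 (Kv1.6) was likewise highest there, at 173 and 193 CPM against at most 53.3 CPM in the neuron types, and Kcnq3 was at 1201 and 1317 CPM, near its relay-like level. In oligodendrocyte precursors, Kcnh8 was at 359 and 386 CPM and Kcnh5 at 251 and 199.6 CPM, below habenula-like but above the other neuron types. Kcnd2 was at 4963 and 4055 CPM in astrocytes and at 235 and 246 CPM in oligodendrocytes. Free RNA, estimated from neuronal genes in oligodendrocytes, came to 147 UMIs per droplet in sham and 191 in injury, and the median oligodendrocyte nucleus over both libraries had 1619 UMIs. Its part in the glial levels was not tested, and the 99.4 and 121 CPM of Kcnc2 in oligodendrocytes are not read as expression.

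**Figure D4:**
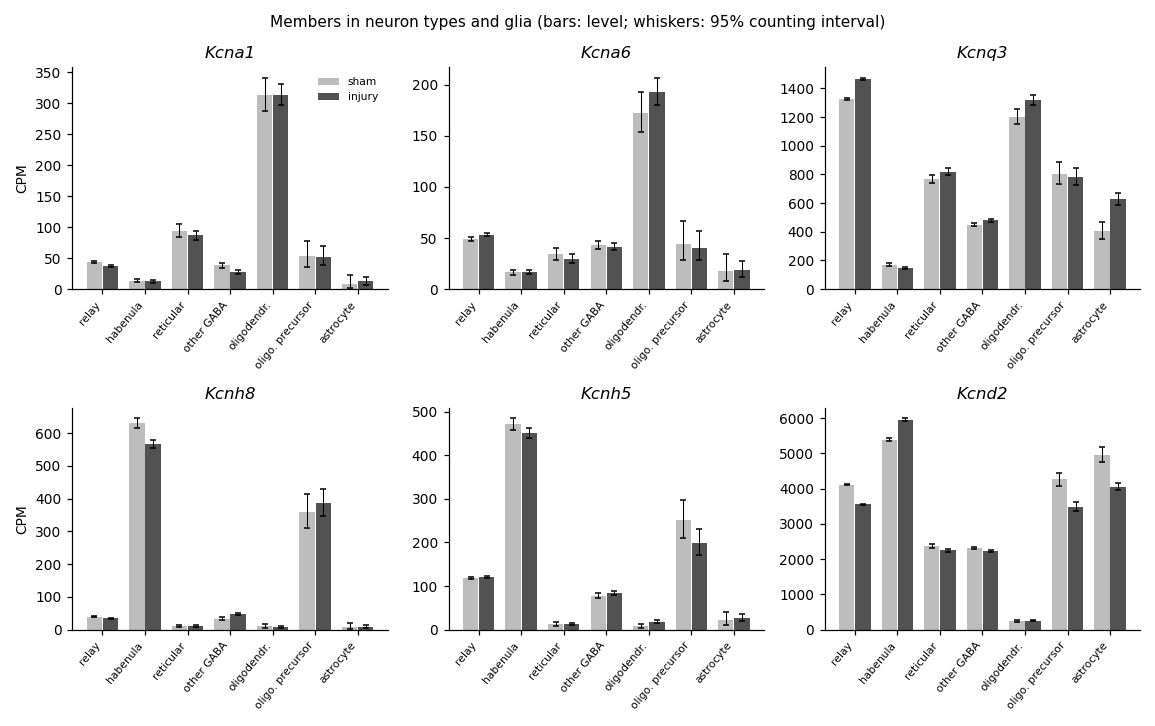
CPM of 6 members in 4 neuron types and 3 glial types, sham in light and injury in dark grey; bars start at 0 and whiskers are 95% counting intervals. Kcna1 and Kcna6 are highest in oligodendrocytes, Kcnh8 and Kcnh5 are high in habenula-like nuclei and oligodendrocyte precursors, and Kcnd2 is low only in oligodendrocytes among the types shown.

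The second question was how these genes differed between the injury and the sham library within each neuron type. Members were compared where they had at least 100 UMIs over both libraries, and a ratio past 1.5-fold was called. Most members differed little. The median log2 ratio of injury over sham was 0.04 over 32 members in relay-like, -0.14 over 26 in habenula-like, -0.04 over 22 in reticular-like and -0.01 over 27 in other GABAergic nuclei. Over all genes measured in the same nuclei it was -0.01, -0.02, -0.00 and -0.00. Counting error alone left 12 relay-like, 11 habenula-like, 14 reticular-like and 12 other GABAergic ratios with an interval that held 0. Each member past 1.5-fold was so in a single type, which leaves no room for opposite calls. Some members had intervals on opposite sides of 0 in different types. Among them were Kcns3 (0.94 in relay-like, -0.45 in other GABAergic nuclei) and Kcnh8 (-0.17 in relay-like, 0.49 in other GABAergic nuclei).

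**Figure D5:**
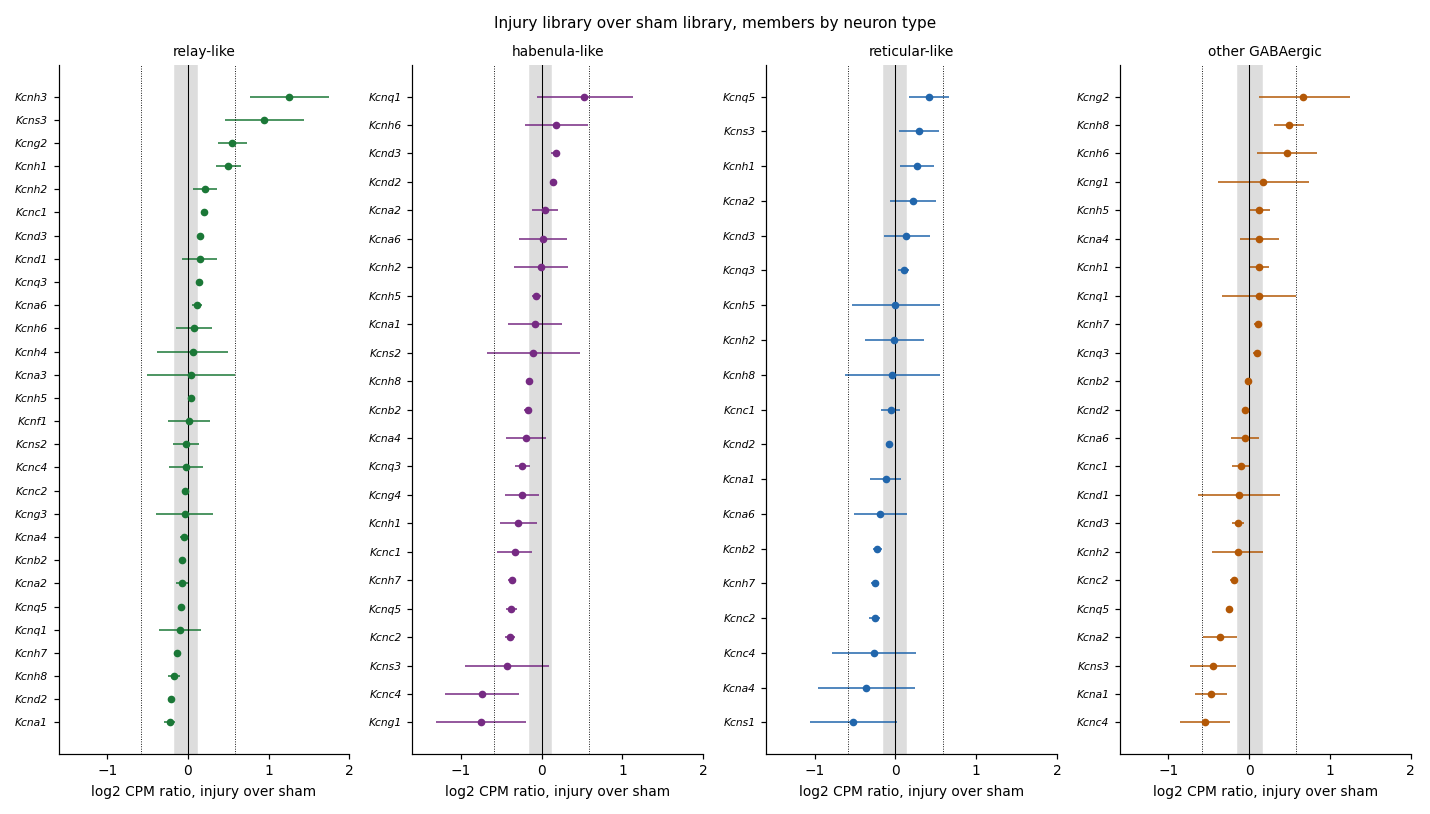
log2 ratio of CPM, injury over sham, for the measured members reported here in the 4 neuron types; points are ratios, bars 95% counting intervals, the grey band spans the quartiles of all genes measured in that type, and dotted lines mark 1.5-fold. Most points lie near 0, habenula-like members lean to the left, and Kcnh3 and Kcns3 in relay-like nuclei lie farthest to the right.

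In relay-like nuclei, 2 members were at least 1.5-fold higher in the injury library (background 1.98%) and 0 were 1.5-fold lower (background 2.12%). Kcnh3, the gene of the Elk2 channel Kv12.2, went from 0.632 CPM on 50 UMIs to 1.502 CPM on 126 UMIs, a log2 ratio of 1.25 (0.77 to 1.75). It was the member with the highest ratio, at a level among the lowest. The 2 glutamatergic clusters seen only in the injury library had 15.2 and 19.0 CPM of Kcnh3, and the gene shares bases with Mcrs1 on the other strand. Kcns3 went from 0.695 to 1.34 CPM on 55 and 112 UMIs, a log2 ratio of 0.94 (0.46 to 1.43), and cluster 6 held 37 and 82 of these UMIs. Cluster 6 had 894 of 7576 relay-like nuclei in sham and 1077 of 7584 in injury. Within cluster 6 the Kcns3 ratio was 0.77, and the part of this shift in the pooled ratio was not tested. At resolution 1.0, where most nuclei like those of cluster 6 left the type, the Kcns3 ratio was 0.85. That of Kcnh3 also stayed past 1.5-fold. There 1 member in place of 2 was called higher, through the 100 UMI minimum and not through the ratio. At the main setting the sum of 10 reticular markers in relay-like nuclei moved with Kcns3, from 13.9 to 22.6 CPM, and its part in the Kcns3 ratio was not tested.

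The next members up in relay-like nuclei were Kcng2, at 5.14 and 7.54 CPM (log2 ratio 0.55, 0.37 to 0.73), and Kcnh1, at 7.27 and 10.3 CPM (0.50, 0.35 to 0.66). With each cluster weighted equally, the Kcng2 ratio was 0.35 and that of Kcnh8, named next, -0.03. At resolution 1.0 the Kcng2 ratio was 0.34. At the lower end were Kcna1 (43.2 and 37.0 CPM, log2 ratio -0.22), Kcnd2 (4113 and 3560 CPM, -0.21) and Kcnh8 (38.9 and 34.5 CPM, -0.17). Among these, Kcnd2 rested on 325416 sham and 298581 injury UMIs and was lower in the injury library in all 10 relay-like clusters, by 0.10 to 0.27 on the log2 scale. Of 15 members measured in every relay-like cluster, 1 was lower throughout (background 10.7%) and 1 was higher throughout (background 9.48%). These shares were near or below those of all genes.

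In habenula-like nuclei, 0 members were at least 1.5-fold higher (background 1.53%) and 2 were at least 1.5-fold lower (background 1.2%). They were Kcng1, at 6.25 and 3.72 CPM (log2 ratio -0.75, -1.31 to -0.20), and Kcnc4, the gene of Kv3.4, at 8.95 and 5.39 CPM (-0.73, -1.20 to -0.28). Kcnc2 (353 and 270 CPM, -0.39) and Kcns3 (6.44 and 4.78 CPM, -0.43, interval -0.95 to 0.08) came next. At the upper end were Kcnq1 (3.64 and 5.24 CPM, 0.53, interval -0.06 to 1.13), Kcnh6 (9.23 and 10.47 CPM, 0.18, interval -0.20 to 0.57) and Kcnd3 (386 and 435 CPM, 0.17). In all, 18 of the 26 members lay below 0, as did 6503 of all 12194 genes measured in these nuclei, and 16 of the 26 did with each cluster weighted equally.

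The mix of habenula-like clusters was not the same in both libraries. Cluster 10 was the largest of the 3 in sham (772 of 1864 nuclei, 41.4%) and cluster 7 in injury (1017 of 2178, 46.7%). With each cluster weighted equally, the median over members went from -0.14 to -0.07, 19 of 26 ratios moved closer to 0, 6 changed sign, and neither Kcng1 (-0.48) nor Kcnc4 (-0.50) passed 1.5-fold. The Kcnc2 ratio shrank from -0.39 to -0.12. Kcnd2 went the other way: its pooled ratio was 0.14, from 5389 to 5951 CPM, yet it was lower in the injury library within each cluster, at -0.11 in cluster 7, -0.10 in cluster 10 and -0.18 in cluster 14. Kcnd3 kept its size, with ratios of 0.13, 0.15 and 0.15 in the 3 clusters. Kcnq3 was higher in the injury library within cluster 7, at 54.8 against 23.2 CPM, while 7 oligodendrocyte markers summed over habenula-like nuclei went from 121 to 286 CPM. Oligodendrocytes have much Kcnq3, and their part in this ratio was not tested.

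In reticular-like nuclei, 0 of 22 members were at least 1.5-fold higher (background 1.28%) and 0 were at least 1.5-fold lower (background 1.96%). The 4 highest ratios belonged to Kcnq5 (0.42, 0.17 to 0.67), Kcns3 (0.29, 0.04 to 0.53), Kcnh1 (0.27, 0.06 to 0.48) and Kcna2 (0.21, -0.07 to 0.50). Kcnq5 turned around without called doublets, to -1.31, and most of its injury UMIs in this type were in such nuclei. The 4 lowest were Kcns1 (-0.52, -1.06 to 0.02), Kcna4 (-0.36, -0.96 to 0.24), Kcnc4 (-0.27, -0.78 to 0.25) and Kcnc2 (-0.26, -0.32 to -0.19), and of these only the interval of Kcnc2, at 788 and 660 CPM, did not hold 0.

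In other GABAergic nuclei, 1 of 27 members was at least 1.5-fold higher (background 3.13%) and 0 were at least 1.5-fold lower (background 1.9%). Kcng2 went from 3.81 to 6.07 CPM on 39 and 99 UMIs, a log2 ratio of 0.67 (0.12 to 1.24), and fell under 1.5-fold without called doublets and at resolution 1.0 (0.46). At that resolution the type consisted of 2 clusters, of 1316 sham and 1615 injury nuclei (led by Gad2, Cdh23 and Pax6) and of 671 and 1721 (led by Sim1, Gm38505 and Sfta3-ps). The second had none of the GABAergic markers among its 10 leading genes, so the type at that resolution is not the same group of nuclei, and the part of this change in the ratio was not tested. Kcnh8 (33.5 and 47.0 CPM, 0.49) and Kcnh6 (8.70 and 12.02 CPM, 0.47) were also near the upper end. The lowest were Kcnc4 (16.4 and 11.2 CPM, -0.55), Kcna1 (38.3 and 27.6 CPM, -0.47), Kcns3 (18.7 and 13.7 CPM, -0.45) and Kcna2 (33.2 and 25.8 CPM, -0.37), each with an interval below 0. With the kept-out clusters included, the Kcna1 ratio was -0.20 and that of Kcng2 1.54. Kcnc4 was thus among the 4 lowest members in habenula-like, reticular-like and other GABAergic nuclei, and the difference between types was not tested. At the main setting it passed 1.5-fold in habenula-like nuclei alone, a call lost with each cluster weighted equally, whereas in other GABAergic nuclei it passed without called doublets (-0.65) and with the kept-out clusters included (-0.83).

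Among the auxiliary subunits, Kcnab3 was lower in the injury library in habenula-like (7.09 and 4.25 CPM, log2 ratio -0.74) and other GABAergic nuclei (7.53 and 4.91 CPM, -0.62), and Kcnip2 was higher in other GABAergic nuclei (10.3 and 20.7 CPM, 1.01, 0.69 to 1.34). Each call was 1 of 10 auxiliary subunits measured in its type (backgrounds 1.2%, 1.9% and 3.13%, in that order). With each cluster weighted equally, the Kcnab3 ratio in habenula-like nuclei was -0.53 and under 1.5-fold. The kept-out GABAergic cluster found almost only in the injury library had 111 CPM of Kcnip2. Kcnab2, a beta subunit of Kv1 channels, was higher in relay-like nuclei (38.05 and 52.7 CPM, 0.47) and in every relay-like cluster, as was Dpp6 (2009 and 2352 CPM, 0.23). These were 2 of 6 auxiliary subunits measured in every relay-like cluster (background 9.48%). Medians over the auxiliary list were 0.12, 0.06, 0.08 and 0.06 in the 4 types, in the order given above.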

How the data were processed

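Nuclei were isolated from the ipsilateral thalamus, stained with propidium iodide, sorted and profiled with droplet 3′ chemistry. The authors deposited raw UMI counts per gene and nucleus, and per the labels they used bcl2fastq, Cell Ranger 6.0.2, Seurat 4.0 and the mm10 (GRCm38) assembly. The tables held 16390 sham and 21828 injury barcodes with 137850696 and 180106314 UMIs.

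Here, nuclei with over 2% mitochondrial UMIs, or with fewer than 200 or more than 7500 genes, were removed. The libraries were integrated and clustered with Seurat 5.3.0 (R 4.3.3, 30 components, resolution 0.5) without the channel genes. Called doublets were the nuclei with the highest Scrublet scores (scanpy 1.11.5), with their share fixed at 0.8% per 1000 nuclei kept. Naming of clusters used marker lists, with thresholds set after cluster markers were seen. Clusters of mostly doublets, with fewer than 50 nuclei in a library, or led by genes of another class entered no type. Other glutamatergic clusters entered none of the 4 types compared. UMIs were summed per type and library and given as CPM. Calls, set-apart gaps, list medians and ratios under the alternatives used 0.5 added UMIs. Injury over sham ratios of a type at the main setting, and the differences between the GABAergic types, are printed without them. The minimum was 100 UMIs, and intervals were exact Poisson (levels) or Clopper-Pearson (ratios) at 95%, for counting error only. With 1 library per group there was no test. TMM factors came from edgeR 4.0.16, and other steps used Python 3.11.15, numpy 2.4.6, pandas 2.3.3, scipy 1.17.1 and matplotlib 3.10.9. Scripts were tested on simulated data. Gene positions were read from GENCODE M21.

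The members and lists were chosen with earlier results of these data known. Text names all members set apart and, per type, the 4 highest and 4 lowest injury over sham ratios, except that 4 members are not reported here by name; other genes named were chosen after their values were seen. Kcne5 had no matching row and was not analysed here.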

Additional observations from a re-analysis of the deposited data

How the results depend on the processing

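The set-apart calls, the injury over sham ratios and calls of members, and the list medians were recomputed under 12 alternatives. Of these, including the kept-out clusters was chosen after seeing the data, as was the tolerance of 0.1 for list medians. Not recomputed were the direct comparisons of the GABAergic types and of the habenula-like clusters, the counts over every relay-like cluster and the glial levels. Members set apart in any type ranged from 15 to 20 around 17. No paired analysis was possible because sham and injury are 1 library apiece, and no replicate could be left out. The cause of the changes given here was not tested.

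With TMM factors, members high in relay-like nuclei went from 2 to 4. With single-nucleus mean CPM, members low in relay-like nuclei went from 4 to 2, low in habenula-like from 3 to 5 and low in other GABAergic from 1 to 0, and habenula-like members higher in injury from 0 to 1. With each cluster weighted equally, other GABAergic went from 1 to 2 high and from 1 to 0 low, and habenula-like members lower in injury from 2 to 0. A prior of 2 UMIs took other GABAergic high from 1 to 0. Resolution 1.0 took it from 1 to 2, relay-like higher in injury from 2 to 1 and other GABAergic higher from 1 to 0.

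Without a UMI minimum, members past 1.5-fold higher and lower in injury were 5 and 2 (relay-like), 6 and 4 (habenula-like), 4 and 1 (reticular-like) and 6 and 2 (other GABAergic), against 2 and 0, 0 and 2, 0 and 0, and 1 and 0. With a minimum of 50, relay-like lower became 1, reticular-like higher 1 and other GABAergic higher 3. Without called doublets, other GABAergic set apart as low became 0, habenula-like higher 1, reticular-like lower 1, other GABAergic higher 0 and lower 1, and the Kcnq5 ratio in reticular-like nuclei reversed from 0.42 to -1.31. Without integration, reticular-like lower became 1. With the kept-out clusters, other GABAergic higher became 3 and lower 1, and the auxiliary median there went from 0.06 to 0.20.

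Low counts limit the calls on sparse members such as Kcnv1, Kcng3, Kcnh3 and Kcns3.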
